A study of Mus musculus with 16 samples.

Results

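The comparison described here is between epididymal white fat of mice labelled KO and of mice labelled WT, both fed chow, at the level of the RNA of each gene. It rests on 8 of the 16 libraries of the series, 4 labelled KO and 4 labelled WT, chosen by their diet and genotype labels alone. RNA-seq was run on eWAT, the fat pad beside the epididymis, taken at 21 weeks of age. Both chow groups were kept on chow with 5% fat; the 2 other groups, HFD WT and HFD KO, of 4 libraries each, ate chow with 60% fat from 5 weeks of age and serve here for comparison. The sample titles read KO where the genotype field of the same samples names an ApoA4 knockdown, and the WT groups carry no other allele or treatment in the labels. The sources used here do not give the strain, the sex, the kind of allele, the tissues it acts in, the litters, the feeding state or the hour of sampling. KO and WT therefore stand for labels throughout.

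Apolipoprotein A-IV, the product of Apoa4, is a lipid-binding plasma protein made mainly by the small intestine and, in mice, the liver, where it travels on chylomicrons and high-density lipoproteins. White fat stores triglyceride after meals, when insulin drives fatty acid synthesis, and releases fatty acids in fasting, when insulin falls and glucocorticoids and catecholamines act on it. The series title concerns apolipoprotein A-IV and inflammatory signalling through the IKK and JNK kinases in white fat.

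The values are FPKM, fragment counts scaled to transcript length and to the size of the library, so levels of different genes can be set side by side. Of all genes, the 12667 that reached 1 FPKM in 4 or more of the 16 libraries entered the test as log2(FPKM + 1) with limma, and a gene is said to rise or fall in the KO-labelled libraries at a Benjamini-Hochberg adjusted p under 0.05. Log2 differences are KO minus WT on that scale, which understates the change of genes of low level. Levels are FPKM in replicates 1 to 4 or mean ± SD (n = 4). The read depth behind the values is unknown.

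The targeted gene went against the labels. Apoa4 (Entrez 11808; GRCm38.p6 chromosome 9, bases 46240844 to 46243458) stood at 0.29, 0.25, 0.23 and 0.09 FPKM in the chow WT libraries and at 3.59, 1.96, 5.96 and 5.29 FPKM in the libraries labelled chow KO. All 4 libraries labelled KO lay above all 4 labelled WT, with a log2 difference of 2.03 (SE 0.24, limma adjusted p = 4.76e-04), so its RNA was higher, not lower, under the label KO. Exons of Gm10680 and Gm47528 lie over it on the opposite strand, and the sources used here do not say whether the counting used strand. Apoc3, the neighbouring gene for an inhibitor of lipoprotein lipase, differed by 1.23 (adjusted p = 0.131) and Apoa1, the main protein of high-density lipoproteins, by -2.16 (adjusted p = 0.242), both short of the threshold. Every direction below rests on the labels.

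The 4 chow WT libraries correlated with each other at Pearson's r of 0.986 to 0.992 across genes on the log2 scale, and 3 of the chow KO libraries at 0.971 to 0.986. Chow KO replicate 2 stood apart, with r of 0.897 to 0.912 to the other 3. It held RNA of the epididymis: the list of 24 epididymis and testis genes took 4.14% of its summed FPKM, against 9.51e-04 to 0.00180% in the other chow KO and 0.00215 to 0.0148% in the chow WT libraries. Counts are therefore also given without it. Whole multiples of a step in the circular RNA entries put the chow KO libraries at a relative depth of 0.751 to 0.875 and the chow WT libraries at 0.922 to 1.02, so depth moved with the label; its part in the results was not tested. RNA of red blood cells did so too. The summed FPKM of the 12 erythroid and platelet genes was 9944, 3964, 4139 and 8031 in chow WT and 2100.1, 1109, 2556 and 1221 in chow KO. Of the 8 tested members none passed the limma threshold (6 had an unadjusted p under 0.05, all lower); 4 were called lower with the 8 chow libraries fitted alone and 5 with array weights, which weight libraries by their scatter. In all, 6 of 8 were lower without overlap (6.25% of all tested genes were) and the median log2 difference was -1.88. The part of blood in the results was not tested. Defining adipocyte genes were abundant in both groups, Adipoq, adiponectin, at 3656, 3619.6, 4573 and 3737 FPKM in chow WT and 3441, 1515, 4271 and 4334 in chow KO.

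In all, 178 of 12667 genes differed between the groups on chow (1.41%), 54 higher (0.426%) and 124 lower (0.979%) in the KO-labelled libraries. Of these, 87 differed at least 2-fold, 12 higher and 75 lower, and 20 at least 4-fold. The direction of the called genes is opposite to the drift of the whole table, in which 8166 genes had a positive and 4501 a negative difference and the median was 0.09. All 178 had no overlap between the 4 and 4 libraries, which held for 1924 of all tested genes (15.2%). At an unadjusted p under 0.05 by limma there were 1861 genes (14.7%), 1165 higher and 696 lower. Without chow KO replicate 2, 119 genes passed, 31 higher and 88 lower, of which 94 were among the 178 with the same direction. Other single libraries weighed more: the count was 87 without chow KO replicate 1, and 90, 55, 79 and 61 without chow WT replicates 1, 2, 3 and 4. Median-of-ratios scaling, which moved the median of all genes to 0.01, gave 42 higher and 170 lower (19.8% higher, against 30.3% here). The values are of whole tissue, so fewer cells of a type and less RNA per cell cannot be told apart.

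**Figure D1:**
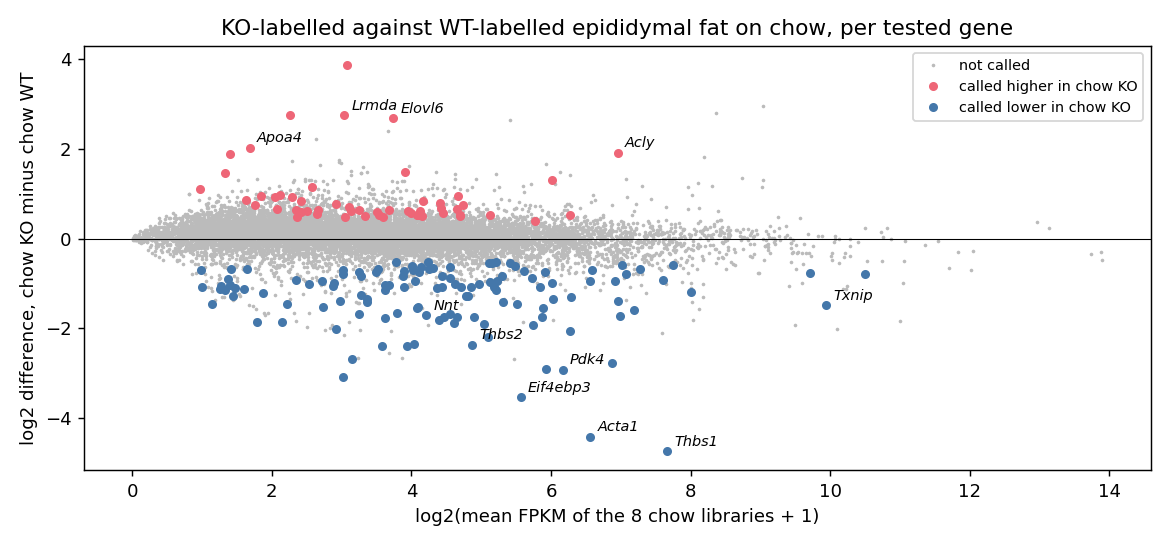
Log2 difference, chow KO minus chow WT (vertical axis), against the log2 mean FPKM + 1 of the 8 chow libraries (horizontal axis) for each of the 12667 tested genes; red points are the 54 genes called higher, blue points the 124 called lower, grey points the rest. Thbs1, Acta1 and Eif4ebp3 lie lowest, and the called genes below 0 reach farther from it than most of those above.

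The largest fall was that of Thbs1, which encodes thrombospondin-1, a secreted matrix glycoprotein that activates latent TGF-beta. It stood at 275, 415, 458 and 389 FPKM in chow WT and at 6.39, 4.89, 36.4 and 24.1 FPKM in chow KO. The lowest WT library lay far above the highest KO library, and the means differed 21.4-fold (log2 difference -4.74, SE 0.48, adjusted p = 1.52e-04). Thbs2, its close relative, stood at 35.4, 57.3, 49.0 and 50.4 FPKM in chow WT and at 10.1, 6.18, 9.67 and 8.11 FPKM in chow KO (-2.36, SE 0.30, adjusted p = 0.00109). Of 16 tested thrombospondins and matricellular genes, proteins of the matrix that signal to cells, 4 fell and 0 rose, with a median of -0.60 against 0.09 for all genes. The other 2 that fell were Ctgf, also called Ccn2, a connective tissue growth factor (19.8 ± 5.36 to 5.87 ± 3.02 FPKM, -1.66, adjusted p = 0.0116), and Wisp2, or Ccn5, of the same family (-1.52, adjusted p = 0.0342). Ctgf missed the threshold without chow WT replicate 4 (adjusted p = 0.0513), and Wisp2 did so without any 1 of the 8 libraries (0.0549 to 0.131). Without chow KO replicate 2, the list had 3 called members and a median of -0.41. Of 28 genes of the structural extracellular matrix Ctgf, also in the matricellular list, was the 1 that fell, with a median of -0.37 (-0.19 without chow KO replicate 2). Of these 28, 8 were lower and 0 higher without overlap (6.25% and 8.94% of all tested genes were). With the 8 chow libraries fitted alone 5 were called lower, with array weights 6, and without chow WT replicate 4 none. Of the 5 platelet genes of the erythroid and platelet list 3 lay under the filter. Pf4 (platelet factor 4), at 37.5 to 43.0 FPKM in chow WT and 35.5 to 70.1 FPKM in chow KO, and Ppbp, at 1.46 to 3.28 and 0.760 to 3.22 FPKM, overlapped between the groups, and the part of platelets in the Thbs1 values was not tested.

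Sfrp5, a secreted Wnt antagonist of adipocytes, fell from 106 ± 13.1 to 14.1 ± 5.25 FPKM (-2.90, adjusted p = 0.0342). Its call ends in all 8 fits without 1 library (adjusted p of 0.0614 to 0.122). Of 19 adipokine genes 2 passed, both lower (median of the list -0.32). Without chow KO replicate 2 none passed and the median was -0.08, and 0 or 1 passed without any other single library. Leptin (Lep) at -0.53 (adjusted p = 0.676) and Adipoq at -0.31 (adjusted p = 0.846; 0.04 without chow KO replicate 2) did not pass.

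Actin genes of muscle type were lower as well. Acta1, the actin of skeletal muscle, stood at 106, 219, 116 and 263 FPKM in chow WT and at 2.39, 2.11, 28.7 and 10.2 FPKM in chow KO (-4.42, SE 0.81, adjusted p = 0.0138; 0.0531 to 0.0609 without chow KO replicate 1 or chow WT replicate 2 or 4). Acta2, the actin of smooth muscle, went from 205 ± 98.2 to 27.4 ± 8.77 FPKM (-2.77, adjusted p = 0.0352; 0.0597 to 0.138 without any 1 of 7 libraries, all but chow WT replicate 3). The other skeletal muscle markers were near 0: of 16 listed, 14 lay under the filter, and of the 2 tested Pvalb differed by -0.08. Of 15 tested smooth muscle and pericyte markers Acta2 alone passed, and the contractile genes Myh11 (2.50 to 14.6 FPKM in chow WT, 1.84 to 7.91 in chow KO) and Tagln (18.03 to 61.6 and 9.81 to 25.4 FPKM) overlapped. In all, 2 of the 15 were lower without overlap (6.25% of all tested genes were) and 0 higher. With median-of-ratios scaling 2 were called lower, and without chow KO replicate 2 none was. The median of the list was -0.09. The summed FPKM of its 17 entries was 438, 470, 254 and 533 in chow WT and 185, 787, 161 and 155 in chow KO. It was thus highest in chow KO replicate 2. Actin genes are near-identical in sequence, and the sources used here do not say how reads that fit several of them were counted. Hspb7, a small heat shock protein of muscle that binds actin filaments, fell by 2.38 (adjusted p = 0.00524) and kept its call in all alternative fits run.

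Genes that glucocorticoids and fasting induce were the list with most called members. Of 23 tested, 9 fell and 0 rose, with a median of -1.13, and 17 of the 23 were lower without overlap, a pattern that 6.25% of all tested genes showed. Pdk4, the kinase that shuts pyruvate out of the mitochondrion in fasting, stood at 99.1, 140.0, 103 and 154 FPKM in chow WT and at 11.4, 6.04, 26.5 and 27.7 FPKM in chow KO (-2.92, SE 0.41, adjusted p = 0.00223). Tsc22d3, which encodes the glucocorticoid-induced leucine zipper GILZ, stood at 198, 249, 210.2 and 208 FPKM in chow WT and at 87.7, 62.9, 53.6 and 85.2 FPKM in chow KO (-1.59, SE 0.25, adjusted p = 0.00510). In both genes the groups were far apart. Cebpd, an early transcription factor of adipocyte differentiation that glucocorticoids induce, stood at 36.8, 48.0, 37.9 and 55.4 against 11.6, 10.2, 9.11 and 21.6 FPKM (-1.74, adjusted p = 0.00230). Ddit4, or REDD1, a stress-induced brake on mTORC1, went from 50.8 ± 7.21 to 13.2 ± 3.66 FPKM (-1.90, adjusted p = 0.0187; 0.0505 to 0.0736 without chow KO replicate 3 or chow WT replicate 2, 3 or 4). Cdkn1a, the cell cycle inhibitor p21, stood at 15.6, 17.1, 13.7 and 16.97 against 4.19, 6.03, 7.29 and 10.1 FPKM (-1.14, adjusted p = 0.00896).

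The other 4 of the 9 were described after their values were seen. Txnip, a thioredoxin-binding arrestin that limits glucose uptake, was among the most abundant of them, at 1353, 1435, 1309 and 1501 FPKM in chow WT and 313, 301, 695 and 934 FPKM in chow KO (-1.49, adjusted p = 0.0272; 0.0670 to 0.0982 without chow KO replicate 1 or 2 or any chow WT replicate). The metallothioneins, small metal-binding proteins, fell too: Mt2 from 191 ± 72.5 to 60.2 ± 30.5 FPKM (-1.72, adjusted p = 0.0106) and Mt1 from 354 ± 74.5 to 160.5 ± 62.4 FPKM (-1.18, adjusted p = 0.0346; 0.0641 to 0.145 without any 1 library but chow KO replicate 2). Hif3a, an inhibitory HIF subunit, fell from 2.24 ± 0.190 to 0.595 ± 0.340 FPKM (-1.05, adjusted p = 0.0106). Of the members that did not pass, Angptl4, an inhibitor of lipoprotein lipase, differed by -1.30 (adjusted p = 0.0826), the clock gene Per1 by -1.26 (0.0708), the kinase gene Sgk1 by -1.21 (0.0703) and Fkbp5, a receptor chaperone, by -0.94 (0.384). Nr3c1, the glucocorticoid receptor itself, differed by 0.35 (adjusted p = 0.279). Without chow KO replicate 2, 8 members fell (median -1.10), and with 1 of the other libraries left out 6 to 9 did. The core clock genes, whose RNA cycles over the day, showed 0 of 20 called by limma (2 higher and 2 lower at an unadjusted p under 0.05) and a median of 0.04. The summed erythroid FPKM given above moved with the same labels, and its part in these falls was not tested.

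**Figure D2:**
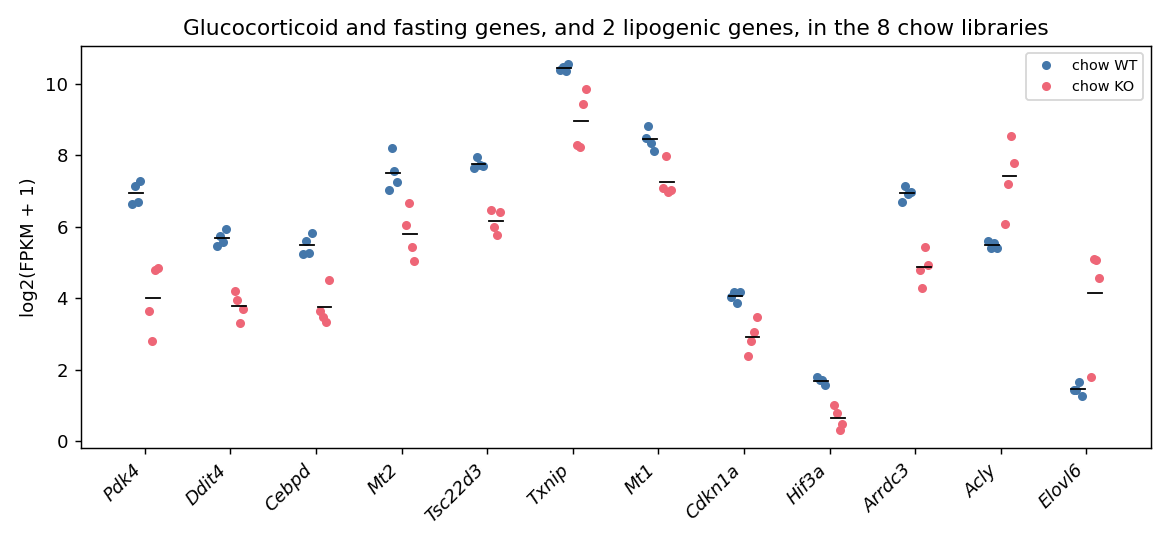
Log2(FPKM + 1) of 12 genes (horizontal axis) in the 8 chow libraries; each point is a library, blue for chow WT and red for chow KO, and bars are group means. The blue points lie above the red ones in the 10 genes from Pdk4 to Arrdc3 and below them in Acly and Elovl6, where chow KO replicate 1 is nearest to the WT libraries.

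Promoters of such genes can hold an element to which the glucocorticoid receptor binds as a pair, and the printed windows are those of 2 called genes that hold one, Txnip and Mt1, and of 1 that holds the element of ATF4, the factor of the integrated stress response. They are the 250 bases before the gene start in the RefSeq promoter table for GRCm38.p6, 5′ to 3′ on the gene's own strand, with matches in capitals: the receptor element GNACANNNTGTNC in Txnip and Mt1, the FOXO element GTAAACA as the second match in Txnip, and the ATF4 element TTGCATCA in Chac1. Txnip lies on the plus strand of chromosome 3 (window chr3:96557707-96557956), Mt1 on that of chromosome 8 (chr8:94178839-94179088) and Chac1 on that of chromosome 2 (chr2:119350992-119351241).
Txnip: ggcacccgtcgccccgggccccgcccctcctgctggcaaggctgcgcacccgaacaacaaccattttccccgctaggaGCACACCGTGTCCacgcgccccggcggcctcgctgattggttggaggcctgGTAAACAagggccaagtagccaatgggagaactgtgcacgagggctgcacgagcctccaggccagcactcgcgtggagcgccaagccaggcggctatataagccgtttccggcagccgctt
Mt1: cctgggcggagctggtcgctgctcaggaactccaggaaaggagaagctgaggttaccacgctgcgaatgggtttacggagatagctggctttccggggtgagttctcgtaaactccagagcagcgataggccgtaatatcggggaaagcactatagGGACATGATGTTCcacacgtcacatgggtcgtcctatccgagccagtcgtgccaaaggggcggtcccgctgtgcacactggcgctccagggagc
Chac1: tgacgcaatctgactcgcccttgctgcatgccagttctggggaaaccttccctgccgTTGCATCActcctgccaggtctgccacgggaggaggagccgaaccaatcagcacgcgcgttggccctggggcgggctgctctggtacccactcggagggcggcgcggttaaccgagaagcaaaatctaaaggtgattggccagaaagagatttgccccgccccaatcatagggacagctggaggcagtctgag

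Promoter entries matched 130 of the 178 called genes and 10110 of the 12667 tested. Both strands of the 250 bases were searched, with motifs chosen after the results were seen. The receptor element occurred in 3 of 92 matched genes that fell (Txnip, Mt1 and Slc10a6, a transporter of sulfated steroids), in 0 of 38 that rose and in 0.326% of tested genes. The ATF4 element occurred in 4 of 92 that fell (Chac1, Fbln5, Serpinf1 and Jdp2), in 0 of 38 that rose and in 0.643% of tested genes. The FOXO element occurred in 3 of 92 and 2 of 38 against 2.80%, the sterol regulatory element TCACNCCAC in 0 of 92 and 1 of 38 against 1.22%, and the E-box CACGTG in 16 of 92 and 4 of 38 against 9.91%. Over all promoters in the table the receptor element occurred in 0.387% and the ATF4 element in 0.791%. These are matches of letters in short windows and no measure of binding.

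Genes of the integrated stress response, which ATF4 turns on when amino acids are short or proteins misfold, fell in part. Chac1, which breaks down glutathione, stood at 11.1, 15.2, 12.9 and 14.7 FPKM in chow WT and 3.42, 3.08, 3.47 and 4.17 FPKM in chow KO (-1.67, SE 0.23, adjusted p = 0.00220). Both groups were narrow and far apart. Trib3, a pseudokinase that restrains insulin signalling, went from 7.70 ± 0.900 to 3.51 ± 0.519 FPKM (-0.95, adjusted p = 0.0222), Sesn2, a leucine sensor upstream of mTORC1, from 28.0 ± 2.99 to 13.2 ± 4.91 FPKM (-1.08, adjusted p = 0.0365), and Ddit4 fell as given above. Those were 4 of 24 tested genes of the unfolded protein and integrated stress responses, with 0 higher and a median of 0.03. Trib3 missed the threshold in 5 fits without 1 library (adjusted p of 0.0534 to 0.0789; chow KO replicate 1 or 2, chow WT replicate 1, 2 or 4) and Sesn2 in 7 (0.0743 to 0.122; all but chow KO replicate 3). Atf4 itself differed by 0.48 (adjusted p = 0.418) and the chaperone gene Hspa5 by 0.27 (adjusted p = 0.702). Among 20 CDK inhibitors and p53 targets, Cdkn1a, Sesn2 and Trp53inp1, a p53-induced nuclear protein (-0.83, adjusted p = 0.0159; 0.0508 to 0.0633 without chow KO replicate 1 or chow WT replicate 2, 3 or 4), fell. In the same list Cdkn2c, the CDK inhibitor p18 that is abundant in adipocytes, and Bbc3, the death protein PUMA, rose. Cdkn2c stood at 39.8, 31.3, 37.8 and 32.0 against 138, 64.2, 75.6 and 90.7 FPKM (1.31, adjusted p = 0.0483; 0.0507 to 0.162 without any 1 library), and Bbc3 at 2.30 ± 0.221 against 5.49 ± 1.93 FPKM (0.93, adjusted p = 0.0166; 0.0537 to 0.0731 without chow WT replicate 2, 3 or 4).

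The call with the smallest adjusted p was that of Eif4ebp3, one of 3 genes for repressors that hold the cap-binding protein eIF4E. It stood at 66.0, 109, 73.4 and 96.7 FPKM in chow WT and at 6.72, 5.85, 5.68 and 7.22 FPKM in chow KO, with means 13.5-fold apart (-3.54, SE 0.17, adjusted p = 1.69e-08). The KO values lay within a narrow band and far under the WT values. Its relatives Eif4ebp1 (469 ± 14.5 against 327 ± 109.7 FPKM, -0.60, adjusted p = 0.322) and Eif4ebp2 (0.15) did not pass, and Eif4ebp3 was the 1 called gene of 22 in the list of translation repressors and mTOR genes. The next gene on chromosome 18, Sra1, a gene for a steroid receptor RNA activator named here after its values were seen, fell from 74.1 ± 4.46 to 44.1 ± 4.28 FPKM (-0.74, adjusted p = 0.00707). Exons of AC115631.1 lie over Eif4ebp3 on the same strand, and the sources used here do not say how reads that fit both were counted.

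Arrdc3, an arrestin-like adaptor that lowers beta-adrenergic signalling, stood at 102, 141, 121 and 126 against 26.9, 18.7, 42.6 and 29.6 FPKM (-2.07, adjusted p = 2.74e-04). Pnpla2, the lipase ATGL that starts lipolysis, stood at 1516, 1649.8, 1665 and 1674 FPKM in chow WT and 870.3, 494, 883 and 820.5 FPKM in chow KO. Those values did not overlap, yet the difference of -1.12 did not pass (adjusted p = 0.140), while with the 8 chow libraries fitted alone it did (adjusted p = 0.0270). Irs2, an insulin receptor substrate, differed by -0.73 without overlap (adjusted p = 0.190; 0.0450 with the 8 alone), whereas Irs1 (0.11), the glucose transporter Slc2a4 (0.75, adjusted p = 0.472) and the adipocyte regulator Pparg (-0.06, or 0.04 with quantile normalization) did not pass in any fit run. Slc2a4 was higher without overlap, at 30.8 to 41.2 FPKM in chow WT and 43.5 to 96.8 FPKM in chow KO, while Irs1 and Pparg overlapped. Of 22 adipocyte identity genes Cebpd alone passed.

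Genes that make fatty acids leaned the other way. Acly, which makes cytosolic acetyl-CoA from citrate, stood at 47.2, 41.3, 46.2 and 41.4 FPKM in chow WT and at 67.1, 147, 373 and 221 FPKM in chow KO (1.92, SE 0.36, adjusted p = 0.0166). Elovl6, which lengthens palmitate to stearate, stood at 1.72, 1.69, 2.16 and 1.42 against 2.51, 33.5, 32.5 and 22.9 FPKM (2.69, SE 0.62, adjusted p = 0.0464). In both genes all KO libraries lay above all WT libraries, replicate 1 by little. These were the 2 called genes of 19 tested for lipogenesis, with 0 lower. Members without a call were, in part, as far apart on the log2 scale and more scattered: Scd2, a desaturase, differed by 2.64 (adjusted p = 0.0786), Srebf1, the insulin-driven regulator SREBP-1, by 1.21 (0.0876) and Fasn, fatty acid synthase, by 1.34 (0.444), with Fasn at 214, 150.3, 1428 and 904 FPKM in chow KO and 153 to 217 FPKM in chow WT. In all, 17 of the 19 had a positive difference, 7 of them without overlap (8.94% of all tested genes were higher without overlap), and the median was 0.93 against 0.09 for all genes. The median was 1.13 without chow KO replicate 2. Both calls hung on single libraries: Acly missed the threshold without chow WT replicate 2 (adjusted p = 0.0676) or 4 (0.0596), Elovl6 without any 1 library (0.103 to 0.138) but chow KO replicate 1, and with the 8 chow libraries fitted alone neither passed (0.0529 and 0.0655). In that fit, which called 357 genes in all, 2 other members of the list were called higher and 0 lower. With array weights, which called 1156 genes in all, 12 of the 19 were called higher and 1 lower (median 1.25). Genes of cholesterol synthesis, which share the SREBP regulators, had a median of 0.61. None of 23 was called by limma, 12 were higher at an unadjusted p under 0.05 (1 lower), and 12 were higher without overlap. Insig1, a sterol-responsive brake on SREBP named after its values were seen, stood at 28.4 ± 0.713 against 66.6 ± 12.5 FPKM (1.18, adjusted p = 0.120).

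Cholesterol export genes split. Abcg1, a transporter that hands cholesterol to high-density lipoproteins, stood at 29.2, 38.2, 39.9 and 42.5 FPKM in chow WT and 11.7, 11.01, 7.05 and 8.09 FPKM in chow KO (-1.89, SE 0.31, adjusted p = 0.00617). Scarb1, the receptor that takes cholesterol up from those particles, stood at 19.6, 14.9, 14.9 and 15.1 against 43.8, 35.5, 26.4 and 25.4 FPKM (0.95, adjusted p = 0.0440; 0.0623 to 0.147 without chow KO replicate 1 or 2 or any chow WT replicate). They were the 2 called of 14 genes. Of 17 cytochrome P450 genes 3 fell and 0 rose. Cyp4v3, a fatty acid hydroxylase, went from 86.7 ± 9.16 to 29.5 ± 5.67 FPKM (-1.54, adjusted p = 0.00330), Cyp27a1, the sterol 27-hydroxylase, from 48.3 ± 4.42 to 22.3 ± 3.94 FPKM (-1.09, adjusted p = 0.00524) and Cyp2d22 from 38.6 ± 7.71 to 15.4 ± 3.70 FPKM (-1.28, adjusted p = 0.0177; 0.0571 to 0.0809 without chow KO replicate 1 or chow WT replicate 2 or 4). Exons of Gm45753 lie over Cyp4v3 on the same strand. The major urinary protein genes Mup15 (-3.08, adjusted p = 0.0135) and Mup14 (-2.69, adjusted p = 0.0499), carriers of pheromones made by the liver, fell. Mup15 stood at 31.8, 12.5, 8.22 and 2.66 FPKM in chow WT and 0, 0.260, 0 and 1.29 FPKM in chow KO. Mup14 stood at 31.4, 12.8, 9.98 and 4.42 against 1.60, 0, 1.35 and 1.54 FPKM. Apoa1 declined in the same order over the chow WT libraries, at 29.7, 10.7, 7.62 and 3.22 FPKM. Its chow KO values were 2.28, 0.300, 0.970 and 2.91 FPKM. Whether RNA from outside fat lies behind these values was not tested. The Mup genes belong to a cluster of near-identical copies, so which copy the reads came from is uncertain. Mup15 missed the threshold without chow WT replicate 2 (adjusted p = 0.0609) and Mup14 without any 1 of the 8 libraries (0.0515 to 0.152).

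**Figure D3:**
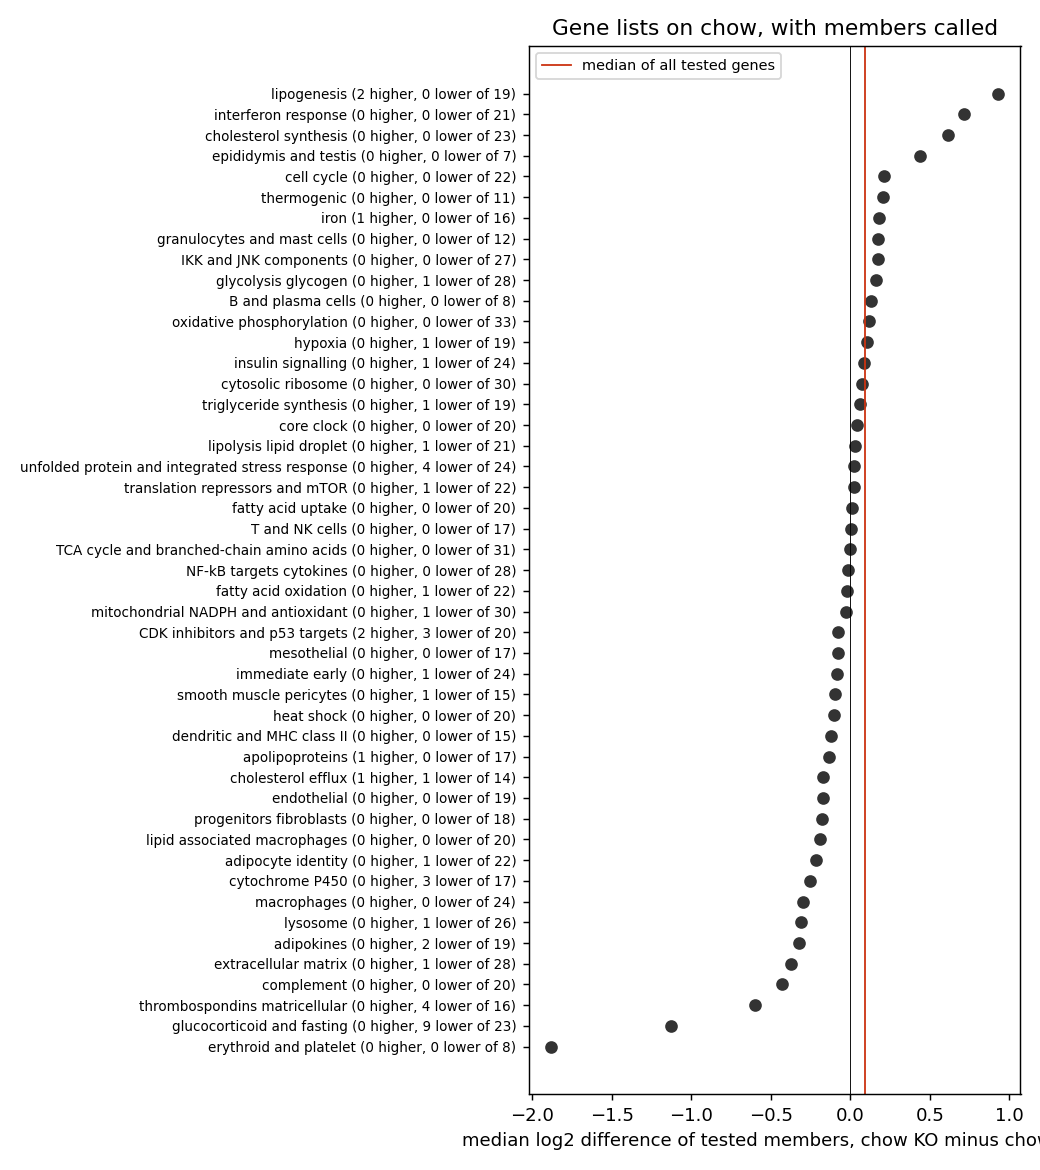
Median log2 difference, chow KO minus chow WT (horizontal axis), of the tested members of each gene list with at least 5 tested members (one row each, with the members called higher and lower); the red line is the median of all 12667 tested genes, 0.09. Lipogenesis lies farthest to the right at 0.93, and the glucocorticoid and fasting list at -1.13 and the erythroid and platelet list at -1.88 lie farthest to the left.

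No gene of the lists on inflammation, which the series is about, passed the test on chow. Of 27 tested IKK and JNK pathway components none was called by limma (4 higher and 0 lower at an unadjusted p under 0.05), with a median of 0.17. Nor was any of 28 NF-kB target and cytokine genes (1 higher and 5 lower unadjusted, median -0.02), of 24 macrophage markers (2 higher and 2 lower unadjusted, median -0.29) or of 20 markers of lipid-associated macrophages (0 higher and 2 lower, median -0.19). Over all 12667 tested genes, 1165 were higher and 696 lower at that unadjusted threshold. Of the NF-kB targets 2 were called lower after quantile normalization and 2 after median-of-ratios scaling, and 5 lower and 1 higher with array weights. Of the macrophage markers 9 were lower and 1 higher without overlap (6.25% and 8.94% of all tested genes were), and 3 were called lower with the 8 chow libraries fitted alone. Of 20 complement genes none was called by limma (0 higher and 3 lower unadjusted, median -0.43), and 6 were lower and 0 higher without overlap. Without chow KO replicate 2, and with median-of-ratios scaling, 1 complement gene was called lower. Tnf, an inflammatory cytokine, stood at 0.343 ± 0.175 against 0.485 ± 0.232 FPKM (0.14, adjusted p = 0.874), and Ccl2, which draws monocytes in, at 2.38 ± 0.675 against 3.21 ± 1.12 FPKM (0.29, adjusted p = 0.840). The acute-phase gene Saa3 stood at 13.6, 8.10, 7.55 and 13.1 against 1.97, 7.72, 2.72 and 3.90 FPKM (-1.27, adjusted p = 0.331). Il1b (0.20), Cd68 (-0.55), Adgre1 (-0.44), Itgax (-0.44) and Trem2 (-0.08), the last 4 being macrophage genes, had adjusted p of 0.591 to 0.952. Adgre1, which encodes F4/80, did not overlap between the groups, at 17.7 to 22.0 FPKM in chow WT and 11.6 to 17.2 FPKM in chow KO, nor did Cd68, at 58.7 to 74.2 and 30.3 to 56.8 FPKM. Il6 and the brown-fat uncoupling gene Ucp1 lay under the filter. Interferon-response genes had a median of 0.71 and 20 of 21 positive differences, but 0 calls by limma (10 higher and 0 lower unadjusted) and 0 members without overlap. With array weights, which called 1156 genes in all, 18 of the 21 were called higher (median 1.22). Their summed FPKM was 191, 183, 337 and 711 in chow KO against 139 to 224 in chow WT. Ifi35, an interferon-induced gene outside that list, was called higher (0.64, limma adjusted p = 0.0231). Its call ended without chow KO replicate 1 or chow WT replicate 2, 3 or 4 (adjusted p of 0.0549 to 0.09995). Of the markers of T and NK cells, B cells, granulocytes and mast cells, endothelium and mesothelium, 0 were called by limma, with 1, 2, 0, 0 and 0 higher and 1, 0, 0, 2 and 1 lower at an unadjusted p under 0.05.

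Among the largest rises were genes with little known role in fat. Lrmda, a gene linked to pigment cell differentiation, stood at 1.01, 0.920, 1.15 and 1.28 against 14.9, 8.51, 15.03 and 15 FPKM (2.75, SE 0.22, adjusted p = 1.08e-05). Nrep, a neuronal regeneration protein, went from 6.21 ± 0.895 to 21.7 ± 13.5 FPKM (1.49, adjusted p = 0.0342; 0.0632 to 0.114 without chow KO replicate 1 or 2 or any chow WT replicate, and 0.0621 with the 8 chow libraries alone). Hpca, a neuronal calcium sensor, went from 0.205 ± 0.0625 to 1.70 ± 0.898 FPKM (1.10, adjusted p = 0.0197; 0.0547 to 0.0731 without chow KO replicate 1 or 2 or chow WT replicate 2, 3 or 4).

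Other lists gave single calls. Adm, adrenomedullin, a vasodilator peptide of the hypoxia list, went from 15.9 ± 1.20 to 7.57 ± 2.31 FPKM (-1.03, adjusted p = 0.0243), Gaa, the lysosomal enzyme that breaks down glycogen, from 53.4 ± 6.94 to 34.2 ± 2.05 FPKM (-0.62, adjusted p = 0.0228), and Fosl2, an AP-1 subunit of the immediate-early list, from 20.7 ± 3.32 to 10.4 ± 2.31 FPKM (-0.94, adjusted p = 0.0186). Ireb2, an iron regulatory protein, rose from 12.9 ± 0.659 to 19.1 ± 1.27 FPKM (0.53, adjusted p = 0.0209). They were the 1 called gene of 19, 26, 24 and 16 tested in their lists. Of the remaining large falls, Peg10, an imprinted gene derived from a retrotransposon, stood at 12.98, 38.1, 18.5 and 29.5 FPKM in chow WT and 3.69, 1.99, 5.10 and 4.03 FPKM in chow KO (-2.39, adjusted p = 0.0187), and Gprin3 at 26.2 ± 7.501 against 4.62 ± 2.58 FPKM (-2.35, adjusted p = 0.0230). Each of these 6 calls ended without chow WT replicate 2 and without chow WT replicate 4, and those other than Fosl2 also without 2 or 3 further libraries (adjusted p of 0.0515 to 0.0934).

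Nnt, which encodes the mitochondrial enzyme that makes NADPH from NADH and is known to carry a deletion in C57BL/6J mice, stood at 25.9, 25.7, 28.4 and 29.2 FPKM in chow WT and at 8.56, 8.05, 6.91 and 7.12 FPKM in chow KO (-1.71, SE 0.12, adjusted p = 2.69e-06). The sources used here name no strain for the mice, and the table gives 1 value per gene, so exons could not be told apart. Of 30 mitochondrial NADPH and antioxidant genes Nnt alone passed. Enc1, an actin-binding protein of early adipocyte differentiation that lies on chromosome 13 as Nnt does, stood at 27.8, 37.2, 32.1 and 41.5 against 11.2, 8.30, 8.46 and 12.6 FPKM (-1.68, SE 0.15, adjusted p = 4.07e-05).

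By chromosome, the share of tested genes that were called ran from 0.4% on chromosome 15 to 3.14% on chromosome 18 (10 of 318), against 1.41% over all and 0 of 5 on the Y chromosome. Chromosome 14 held 10 of 435 (2.30%), 3 higher, Lrmda and Gm16867 among them, and 7 lower. On chromosome 14 Ppp1r3e, a subunit that brings protein phosphatase 1 to glycogen, stood at 5.13, 5.72, 6.48 and 5.76 FPKM in chow WT and 1.86, 1.56, 1.16 and 1.38 FPKM in chow KO (-1.45, SE 0.14, adjusted p = 9.72e-05). Ang, angiogenin, a secreted ribonuclease, stood at 12.5, 10.6, 11.1 and 10.2 against 2.85, 1.09, 2.42 and 1.81 FPKM (-2.02, SE 0.22, adjusted p = 2.51e-04), and its neighbour Rnase4, which shares exons with it, at 169 ± 9.82 against 98.5 ± 14.3 FPKM (-0.78, adjusted p = 0.0288; 0.0526 to 0.0966 without any 1 library but chow KO replicate 3). Pnp2, a near copy of the purine nucleoside phosphorylase gene, fell by 1.85 (adjusted p = 0.00223). Exons of Gm49342 lie over Pnp2 on the same strand. Genes named by chromosome alone were chosen after their values were seen.

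The same contrast on HFD takes its difference from the HFD libraries alone, while its standard error comes from the spread within all 4 groups, chow included. There 4 genes differed (0.0316%), 3 higher (0.0237%) and 1 lower (0.00789%). At an unadjusted p under 0.05 by limma there were 1500 genes on HFD (11.8%), against 1861 on chow (14.7%). HFD KO replicates 2 and 4 also held epididymal RNA, at 2.94% and 1.48% of summed FPKM, against 0.00301 to 0.0277% in the other HFD libraries. Leaving them out together with chow KO replicate 2 raised the counts on HFD and of the interaction, as given in the last section. Of the 4, 3 were also called on chow in the same direction: Apoa4 (2.95 on HFD), Gm2427, a predicted gene (2.75 on chow and 2.22 on HFD), and Ppp1r3e (-1.56 on HFD). Over the 178 genes called on chow, the median absolute log2 difference was 0.98 on chow and 0.21 on HFD. The chow value was taken from the contrast that chose the genes and is larger for that reason; the HFD value stood beside 0.18 for all tested genes. On HFD 88 of the 178 (49.4%) had the sign they had on chow, against 58.5% of all tested genes, in 36 of 54 that rose and 52 of 124 that fell. Over all tested genes the median HFD difference was 0.09, so the whole table leans to the sign of the rises. In 160 of the 178 the absolute HFD difference was less than 0.5 times that on chow, against 3827 of all 12667 tested genes. The 178 were chosen for their chow difference, which by itself raises this count.

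**Figure D4:**
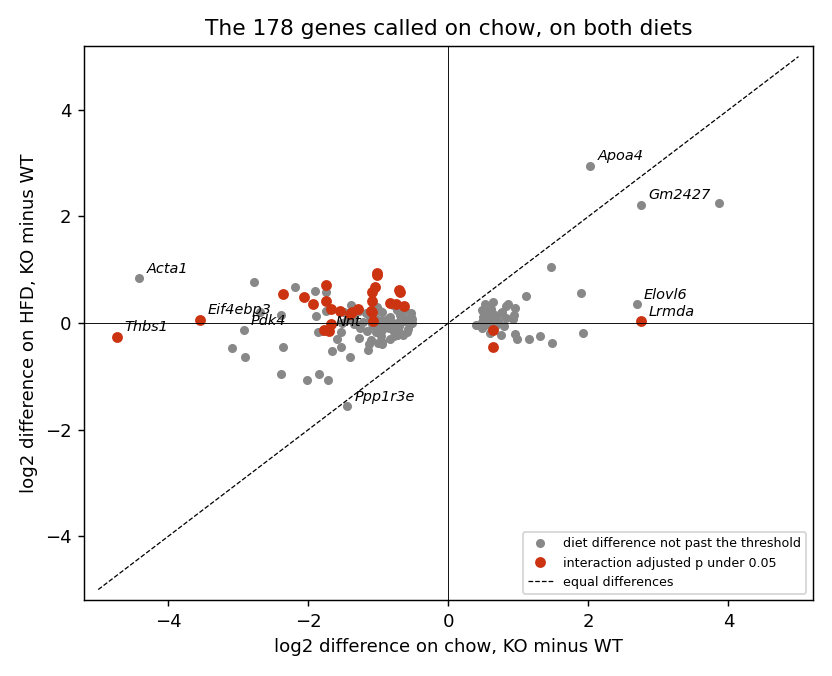
Log2 difference, KO minus WT, on chow (horizontal axis) and on HFD (vertical axis) of the 178 genes called on chow; red points are the 31 whose interaction passed the threshold, and the dashed line marks equal differences. Apoa4, Gm2427 and Ppp1r3e lie near the dashed line, while Thbs1, Eif4ebp3 and Lrmda lie near 0 on HFD.

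The difference between the diets was tested as an interaction, the log2 difference on HFD less that on chow. It passed for 37 genes (0.292%), 32 of them positive (0.253%) and 5 negative (0.0395%). Of the 37, 31 were among the 178, of which 28 had fallen and 3 had risen on chow. Since the chow libraries enter both tests, these 31 do not count as separate evidence of the chow difference. Thbs1 differed by -0.25 on HFD (interaction 4.48, adjusted p = 0.0112), Thbs2 by 0.54 (2.91, adjusted p = 0.00788), Eif4ebp3 by 0.06 (3.61, adjusted p = 1.85e-06), Nnt by -0.15 (1.56, adjusted p = 0.00102) and Lrmda by 0.04 (-2.71, adjusted p = 0.00126). Arrdc3 (interaction 2.55, adjusted p = 0.00276), Cebpd (2.16, 0.0192) and Chac1 (1.94, 0.0196) passed as well. Pdk4 (2.79, adjusted p = 0.0655), Acly (-2.11, 0.124) and Elovl6 (-2.33, 0.347) did not. For the glucocorticoid and fasting list the median was 0.21 on HFD, against -1.13 on chow, and for lipogenesis -0.24 against 0.93.

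For many of these genes the chow WT group was the one that stood apart. In 103 of the 178 the 4 chow WT libraries lay all above (77) or all below (26) the other 12, chow KO and both HFD groups, a pattern of 5.07% of all tested genes. Since all 178 were already without overlap between the chow groups, the share to set beside these 57.9% is that among the 1924 such genes, 33.4%. The chow KO libraries stood apart from the other 12 in 40 of the 178 (22.5%), against 2.75% of all tested genes and 18.1% of the 1924. Nnt stood at 7.75 to 10.6 FPKM in HFD WT and 6.50 to 9.41 FPKM in HFD KO, against 6.91 to 8.56 FPKM in chow KO. Eif4ebp3 stood at 3.33 ± 0.936 FPKM in HFD WT and 3.46 ± 0.214 FPKM in HFD KO, under chow KO, and Enc1 at 11.7 ± 1.59 and 11.5 ± 0.890 FPKM, near chow KO. Thbs1, at 50 to 103 FPKM in HFD WT and 41.6 to 94.3 FPKM in HFD KO, and Lrmda, at 5.31 ± 1.64 and 5.44 ± 1.54 FPKM, lay between the chow groups. The mean of the HFD WT libraries was nearer to chow KO than to chow WT in 109 of the 178 genes, and that of the HFD KO libraries in 119. Over all 12667 tested genes the same held for 6651 and 7361, so much of these counts is shared by the whole table. Of the 54 genes called higher, HFD WT was nearer to chow KO in 27, and of the 124 called lower in 82. A trait of the chow WT group other than the genotype cannot be told apart from the genotype label in such genes.

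In 10 of the 178 genes, all 8 KO-labelled libraries lay on one side of all 8 WT-labelled ones whatever the diet. This held for 28 of all tested genes (0.221%). Since all 178 were already without overlap on chow, the count to set beside the 10 is 28 of the 1924 such genes. Of the 10, those above included Apoa4, Gm2427, Hpca, Psg16, Gm29801 and Ppp1r9b, and those below were Ppp1r3e, Ang and Pnp2. Ang stood at 7.33 ± 1.33 FPKM in HFD WT and 3.08 ± 1.21 FPKM in HFD KO. Ppp1r3e stood at 6.15, 4.77, 4.69 and 4.55 FPKM in HFD WT and at 0.790, 0.910, 0.960 and 1.59 FPKM in HFD KO, much as on chow. Ppp1r3e, Ang and Pnp2 lie on chromosome 14, Apoa4 on chromosome 9.

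**Figure D5:**
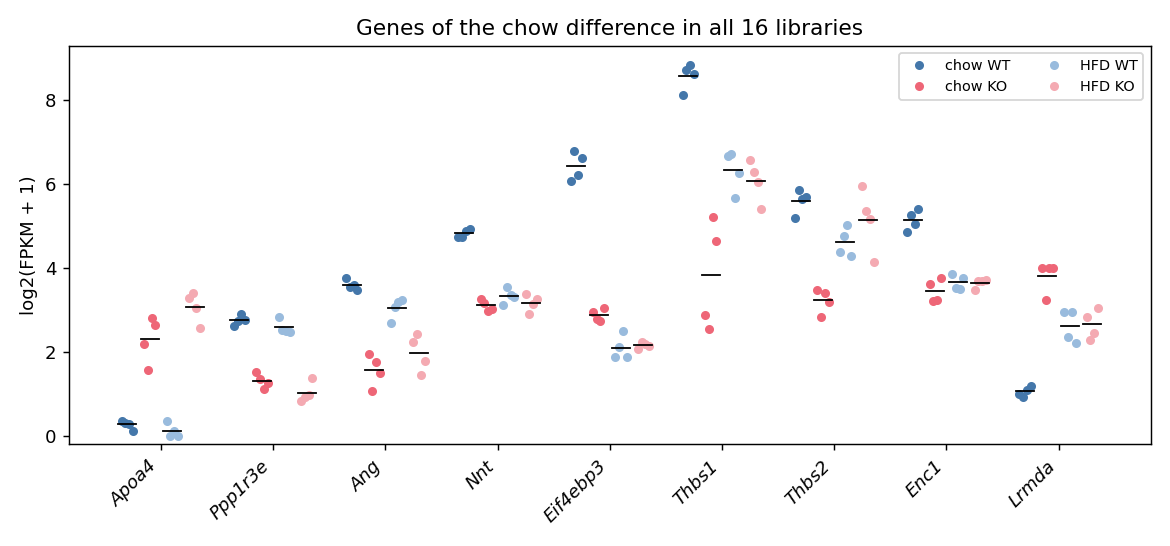
Log2(FPKM + 1) of 9 genes (horizontal axis) in all 16 libraries; each point is a library, dark blue for chow WT, dark red for chow KO, pale blue for HFD WT and pale red for HFD KO, and bars are group means. Apoa4, Ppp1r3e and Ang separate by genotype label on both diets, while in Nnt, Eif4ebp3, Thbs1 and Enc1 the dark blue points alone lie high and in Lrmda alone lie low.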

How the data were processed

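RNA-seq values of 16 mouse eWAT libraries in 4 groups of 4 were used. The authors deposited FPKM with 2 decimals; 20101 entries carry Entrez numbers, of which 19945 matched the reference gene table; STAR 2.7, GRCm38.p6 and mm10 are named in the submitters' processing notes, and TRIzol, an MGIEasy kit and paired BGI-seq 500 reads in the labels. The sources used here do not give the counting tool, annotation, strand, filters or depth. FPKM are not counts, so no count test was run; relative depth came from the 14408 circular RNA entries, all within 0.05 of a step up to 100 steps.

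Log2(FPKM + 1) was fitted with limma 3.58.1 in R 4.3.3 as 4 group means over all 16 libraries, with a variance trend and 12 residual degrees of freedom, and p-values were adjusted over all 12667 tested genes. Labels state 4 mice per group and nothing of cages or litters. The script was tested on simulated data.

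Members, 49 gene lists (1077 members, 1070 with an entry) and motifs were chosen with earlier results of these data known, so list counts are descriptions. Named genes were chosen as Apoa4 and fixed genes of inflammation, adipocytes and the Apoa4 cluster, the 15 largest rises and 15 largest falls among called genes without overlap (predicted genes left out), up to 4 called members per list by p, up to 4 called on both diets and up to 4 per direction by interaction p. Of the genes so chosen, the fixed gene Apoa5, the rises H2-T24, Rhbdl3, Nat8f1, Fuom and Aatk, and Purb, chosen by interaction p, are not described above. Other genes were chosen after their values were seen. A few single genes are not reported here. Alternatives were other scalings, pseudocounts, filters and designs, and leaving out libraries. Positions are from GRCm38.p6 annotation.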

Additional observations from a re-analysis of the deposited data

Results flagged for a closer look

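Several values of a single library lay far from the other 3 of their group by Dixon's test, which flags about 1 in 20 groups by chance. In chow KO replicate 2 the epididymis and testis list took 4.14% of the summed FPKM, against 9.51e-04 to 0.00180% in the other chow KO libraries. The same library held Pnpla2 at 493.88 FPKM (820.5 to 883 in the others), Lrmda at 8.51 FPKM (14.9 to 15.03), Mup14 at 0 FPKM (1.35 to 1.60), Trib3 at 2.74 FPKM (3.72 to 3.86) and Trp53inp1 at 13 FPKM (8.11 to 8.76). In chow KO replicate 1 Elovl6 stood at 2.51 FPKM (22.9 to 33.5 in the others) and Fosl2, an AP-1 subunit, at 13.83 FPKM (8.98 to 9.51). In chow WT replicate 1 Pnpla2 stood at 1516 FPKM (1649.8 to 1674) and Scarb1 at 19.63 FPKM (14.9 to 15.1), and in chow WT replicate 3 Adipoq stood at 4573 FPKM (3619.6 to 3737).

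The difference between KO and WT labels differed between the diets, by limma's interaction test, for 14 of the named genes. Beside Nnt (1.56, adjusted p = 0.00102), Lrmda (-2.71, 0.00126), Thbs1 (4.48, 0.0112), Eif4ebp3 (3.61, 1.85e-06), Thbs2 (2.91, 0.00788), Arrdc3 (2.55, 0.00276), Cebpd (2.16, 0.0192) and Chac1 (1.94, 0.0196), these were the following. Enc1 differed by -1.68 on chow and -0.02 on HFD (interaction 1.66, adjusted p = 0.00276), Cyp27a1 by -1.09 and 0.59 (1.68, adjusted p = 0.00788), Trp53inp1 by -0.83 and 0.39 (1.21, adjusted p = 0.0272), Ifi35, an interferon-induced protein, by 0.64 and -0.45 (-1.09, adjusted p = 0.0192), Ano8, a channel-family protein that tethers membranes, by 0.63 and -0.14 (-0.77, adjusted p = 0.0350), and Cdkn1b, the CDK inhibitor p27, which was not called on chow, by -0.11 and 0.72 (0.83, adjusted p = 0.0378).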

How the results depend on the processing

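Genes called on chow numbered 178 (54 higher, 124 lower). The count was 357 (110 and 247) with the 8 chow libraries fitted alone, 1156 (564 and 592) with array weights, 232 (81 and 151) with the epididymal share as covariate, 139 (38 and 101) at a mean FPKM of at least 5, 212 (42 and 170) with median-of-ratios scaling and 191 (43 and 148) with quantile normalization. It was 178 (67 and 111) with a constant sum, 169 with no filter, 173 with no variance trend, 160 and 175 with pseudocounts of 0.1 and 0.5, 242 (77 and 165) without the 3 libraries with epididymal genes, 365 (155 and 210) at an adjusted p under 0.1 and 87 (12 and 75) at 2-fold or more. Leaving out 1 library at a time gave 55 to 159 calls, 11 to 64 higher and 44 to 98 lower. The labels share replicate numbers across groups, but same-numbered chow libraries did not deviate together (r of -0.138 to 0.129). Chow KO replicate 2 correlated best with chow WT replicate 1, at 0.253. The main fit therefore used no pairing. The HFD libraries were not compared in this way, and low r cannot exclude shared litters or batches. With a replicate block 115 genes (31 and 84) were called. On HFD 8 genes were called with median-of-ratios scaling or quantile normalization and 40 without the 3 libraries; the interaction gave 18 with the block and 65 without the 3 libraries. The cause of these shifts was not tested. Of the 53 called genes chosen for naming, not all of them described above, 22 kept their call in all fits, 31 lost it in at least one and 0 changed sign. Signs turned in 3 genes that were not called. Trem2 ran from -0.31 to 0.0524 with 1 library left out (0.0309 and 0.0524 without chow KO replicates 3 and 4, 0.0130 without chow WT replicate 2). Adipoq ran from -0.46 to 0.0424 (0.0424 without chow KO replicate 2 and without the 3 libraries) and was 0.0131 with array weights. Pparg ran from -0.28 to 0.0244 (0.0244 without chow KO replicate 3, 0.0201 without replicate 2 and without the 3 libraries) and was 0.0410 with quantile normalization. Depth is unknown, so no difference near the filter can be placed against counting error.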
